A study of Mus musculus with 6 samples.

Results

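The genes described here were C1qa, C1qb and C1qc, which encode the chains of complement component C1q, together with Axl, Mertk, Timd4, Adgre1, Vcam1, Cd68 and Spic. They are 10 of the 22322 genes in the deposited table, and all 10 symbols were found once. Of these, 9 had a count in at least 1 library and 7 passed the filter on low counts. The 10 genes were selected on the difference between the genotypes in these same libraries, so that their differences are given as a description and nothing is read from a test of them. The series compared RNA from sorted CD4+CD8+ double-positive (DP) thymocytes, the main cell population of the mouse thymus, between 3 control and 3 Paxbp1 cKO libraries, to ask which transcripts differ in cells that lack Paxbp1. Both groups carried Paxbp1fl/fl alleles on a C57BL/6 background. The controls, labelled WT (Paxbp1fl/fl), were littermates without Cre, and the cKO mice also carried Lck-cre, a transgene driven by the Lck promoter, which is active in T-lineage cells. All mice were untreated, 4 to 7 weeks old and of mixed sexes.

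C1q is the recognition unit of the classical complement pathway, and it also coats dying cells so that phagocytes take them up. Unlike most complement proteins, which come from the liver, C1q is made mainly by macrophages and related myeloid cells. Efferocytosis is the engulfment of dying cells by phagocytes, and macrophages of the thymic cortex perform it on thymocytes that fail selection. TIM-4 (from Timd4) binds phosphatidylserine on the dying cell directly, whereas Axl and Mertk are receptor tyrosine kinases that reach it through bridging proteins. Adgre1 encodes F4/80, the surface protein most used to identify mouse macrophages. Vcam1 encodes an adhesion molecule of stromal cells and of some tissue macrophages, Cd68 a glycoprotein of macrophage lysosomes, and Spic the transcription factor Spi-C, which is required for the iron-recycling macrophages of the splenic red pulp.

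Sequencing depth ranged from 18963775 counts in cKO 2 to 26252248 in control 3. Levels are given as CPM, counts scaled to the library total times its TMM factor, and a single count equalled 0.0388 to 0.0520 CPM. The labels do not say whether the libraries of a group came from separate mice, so p-values given for other genes measure the spread between these libraries. Paxbp1 itself had 774, 318 and 400 counts in control 1 to 3 and 851, 905 and 1075 counts in cKO 1 to 3. It thus stood higher in the libraries labelled cKO, at 45.2 ± 5.64 CPM against 24.0 ± 14.0 CPM (SD, n = 3), with overlap through control 1. The log2 fold change was 0.92 (SE 0.33), with an adjusted p of 0.0977 in edgeR, 0.0213 in DESeq2 and 0.0390 in limma-voom, and of 0.0017 in edgeR without control 1. This direction goes against the label of a deletion. However, the floxed region is exon 8 alone, and counts over the whole gene do not measure that exon. The paper reported complete deletion before the DP stage by qPCR, and efficient loss of the protein in sorted DP cells by western blot. Groups are therefore named by their labels throughout. All 10 markers of DP thymocytes were present, from Cd8a and Rag1 to Themis, in every library.

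The C1q chain genes lie side by side on the minus strand of chromosome 4 in mouse build GRCm38, within 18675 nt from 136880129 to 136898803. C1qb (136880129 to 136886187) is followed after 3616 nt by C1qc (136889804 to 136893065) and after another 2851 nt by C1qa (136895917 to 136898803). The promoter windows of 7 of the 10 genes were in the RefSeq table of GRCm38.p6, each with 250 bases before and 50 bases after the start site. Those of C1qa, Adgre1 and Vcam1 were not used here. The 4 windows that hold the PU box, the letters GAGGAA bound by the myeloid factors PU.1 and Spi-C, are shown because they belong to genes counted in both genotypes. They are C1qb (chr4:136886151-136886450), C1qc (chr4:136892865-136893164), Cd68 (chr11:69666121-69666420) and Axl (chr7:25788684-25788983), all on the minus strand and written 5′ to 3′. Capitals mark the PU box on either strand, where the opposite strand reads TTCCTC.
C1qb: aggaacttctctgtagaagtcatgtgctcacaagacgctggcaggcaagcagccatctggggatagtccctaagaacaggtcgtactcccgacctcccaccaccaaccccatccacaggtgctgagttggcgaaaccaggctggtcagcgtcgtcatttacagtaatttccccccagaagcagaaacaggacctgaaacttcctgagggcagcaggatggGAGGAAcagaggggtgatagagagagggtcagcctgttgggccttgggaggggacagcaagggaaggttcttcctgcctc
C1qc: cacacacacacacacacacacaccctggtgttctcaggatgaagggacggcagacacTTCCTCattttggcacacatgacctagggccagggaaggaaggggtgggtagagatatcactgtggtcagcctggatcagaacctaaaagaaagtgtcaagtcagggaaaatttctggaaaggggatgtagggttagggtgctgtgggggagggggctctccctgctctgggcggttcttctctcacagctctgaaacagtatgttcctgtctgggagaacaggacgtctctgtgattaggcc
Cd68: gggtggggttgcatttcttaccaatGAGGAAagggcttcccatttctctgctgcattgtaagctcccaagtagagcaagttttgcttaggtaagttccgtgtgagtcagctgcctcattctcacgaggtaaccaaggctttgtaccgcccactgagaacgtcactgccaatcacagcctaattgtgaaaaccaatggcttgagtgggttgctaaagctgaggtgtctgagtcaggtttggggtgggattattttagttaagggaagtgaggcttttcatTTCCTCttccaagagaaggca
Axl: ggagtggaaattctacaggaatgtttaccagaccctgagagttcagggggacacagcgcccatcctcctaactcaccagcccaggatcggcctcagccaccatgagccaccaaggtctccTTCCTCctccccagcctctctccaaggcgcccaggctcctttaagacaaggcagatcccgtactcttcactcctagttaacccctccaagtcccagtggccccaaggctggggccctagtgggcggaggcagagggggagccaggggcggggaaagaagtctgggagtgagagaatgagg

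The PU box began 30 bases before the start site of C1qb and, on the opposite strand, 193 bases before that of C1qc and 130 bases before that of Axl. Cd68 held it at 225 bases before the start and, on the opposite strand, at position 30 after it. The windows of Mertk, Spic and Timd4 did not contain these letters. Searched on both strands in the same way, GAGGAA occurred in 28.3% of all 32817 promoter windows. TATAAA occurred in 13.6% of all windows and in none of the 7. The PU box thus stood in the window of Axl, whose level overlapped between the groups, as well as in those of C1qb, C1qc and Cd68.

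The 3 C1q chains were counted at low levels in the control libraries and at several times those levels in the cKO libraries. C1qa, the A chain (ENSMUSG00000036887), had 14, 17 and 0 counts in control 1 to 3 and 106, 53 and 128 counts in cKO 1 to 3. C1qb, the B chain (ENSMUSG00000036905), had 44, 21 and 18 counts against 154, 162 and 237. C1qc, the C chain (ENSMUSG00000036896), had 33, 10 and 17 counts against 166, 125 and 227. For each chain the lowest cKO library lay above the highest control library, by a ratio of 3.16 in CPM for C1qa, 3.08 for C1qb and 3.80 for C1qc. Mean levels in CPM were 0.533 ± 0.468 in control and 4.50 ± 1.60 in cKO for C1qa (SD, n = 3). The corresponding levels were 1.35 ± 0.826 and 8.80 ± 1.98 for C1qb. For C1qc they were 0.962 ± 0.653 and 8.18 ± 2.05. The fitted log2 fold changes, cKO over control, were 3.10 (SE 0.92), 2.71 (SE 0.46) and 3.09 (SE 0.50) in that order. The 3 estimates differed from each other by less than their standard errors. In bulk RNA such as this, fewer cells of a type and less RNA per cell cannot be told apart, and the same holds for more.

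C1q is assembled from the A, B and C chains in equal numbers, so the shares of the 3 transcripts were compared within each library. By FPKM, which corrects for gene length, C1qa made up 26.7%, 16.8% and 23.2% of the summed level of the chains in cKO 1 to 3. C1qb made up 37.1%, 49.0% and 41.1%, and C1qc made up 36.2%, 34.2% and 35.6%. C1qa was thus lowest in each cKO library, and C1qc varied least. C1qb led in cKO 2 and cKO 3, while in cKO 1 C1qc led by counts, at 39.0% (Wilson 95% interval 34.5 to 43.7%) against 36.2% for C1qb (31.7 to 40.8%), within counting error. The means in cKO were 22.3 ± 5.04% for C1qa, 42.4 ± 6.06% for C1qb and 35.3 ± 1.02% for C1qc (SD, n = 3). In control the shares rested on 91, 48 and 35 counts for the 3 chains together, against 426, 340 and 592 in cKO, and ranged more widely. Control 3 had no C1qa count among 35 (Wilson 95% interval of the share of counts 0 to 9.89%), while control 2 had C1qa at 35.4% of CPM (23.4 to 49.6%). The interval for C1qa was 12.1 to 19.8% of counts in cKO 2 and 21.0 to 29.2% in cKO 1, so these 2 libraries differed in chain shares by more than counting error. These intervals cover counting error only.

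**Figure D1:**
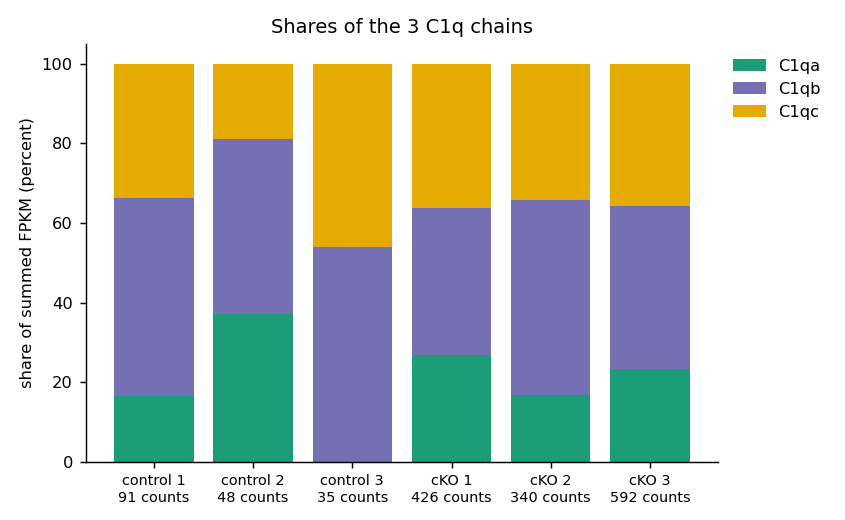
Stacked bars give the percent of the summed FPKM of C1qa, C1qb and C1qc taken by each chain, 1 bar per library, with the number of counts behind each bar below it. The 3 cKO bars are alike in C1qc (34.2 to 36.2%), and the control bars, which rest on 35 to 91 counts, are uneven, with no C1qa in control 3.

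The 3 phosphatidylserine receptors showed 3 different patterns. Axl (ENSMUSG00000002602, chromosome 7, 25757273 to 25788705) had 99, 120 and 76 counts in control 1 to 3 and 97, 121 and 139 counts in cKO 1 to 3. The groups overlapped, and the log2 fold change was 0.27 (SE 0.37), with means of 4.75 ± 1.64 CPM in control and 5.71 ± 1.12 CPM in cKO (SD, n = 3). Axl was thus the one gene of the 9 with a count whose groups were not apart. Mertk (ENSMUSG00000014361, chromosome 2, 128698956 to 128802894), a receptor typical of mature tissue macrophages, was listed at 0 in all 6 libraries. Its gene overlaps an antisense transcript, Gm14011, over 2435 of its 103939 nt, and the counting is not stated to use strand. Timd4 (ENSMUSG00000055546, chromosome 11, 46810800 to 46844332) was listed at 0 in all 3 control libraries and had 8, 13 and 23 counts in cKO 1 to 3. Its pooled level in cKO was at least 15.3-fold higher than a floor of 3 counts over the whole control group.

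The macrophage surface and lysosome genes were also apart between the groups. Adgre1 (ENSMUSG00000004730, chromosome 17, 57358691 to 57483527) was listed at 0 in every control library and had 50, 42 and 52 counts in cKO 1 to 3. The cKO level of 2.29 ± 0.107 CPM (SD, n = 3) varied by 4.67% between libraries, the least of the 9 genes. At 42 to 52 counts this spread lies within counting error and is not read as a trait of Adgre1. The pooled cKO level was at least 50.02-fold higher than the same control floor. Vcam1 (ENSMUSG00000027962, chromosome 3, 116109949 to 116129688) had 10, 7 and 5 counts in control and 88, 67 and 107 in cKO. All cKO libraries lay above all control libraries, the lowest cKO level being 6.73 times the highest control level. The means were 0.357 ± 0.162 and 4.15 ± 0.734 CPM, with a log2 fold change of 3.54 (SE 0.58). Vcam1 overlaps the antisense transcript Gm43109 over 1238 of its 19740 nt. Cd68 (ENSMUSG00000018774, chromosome 11, 69664213 to 69666153) had 34, 19 and 24 counts in control and 118, 66 and 135 in cKO. It was the best counted of these in control, and its log2 fold change of 2.04 (SE 0.48), from 1.22 ± 0.468 to 5.02 ± 1.43 CPM, was the smallest of the 6 tested genes whose groups were apart.

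Spic (ENSMUSG00000004359, chromosome 10, 88674772 to 88685015) was the sparsest gene with a count in both groups. It had 0, 1 and 1 counts in control 1 to 3 and 25, 18 and 4 counts in cKO 1 to 3. The ratio of the pooled levels was 24.5, with an exact 95% interval of 6.41 to 208 that covers counting error alone. The libraries of the cKO group were uneven for Spic, since cKO 3 had 0.184 CPM and cKO 1 had 1.14 CPM. In the other 8 genes with a count cKO 3 was the highest library, so Spic ran opposite to them within the group.

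**Figure D2:**
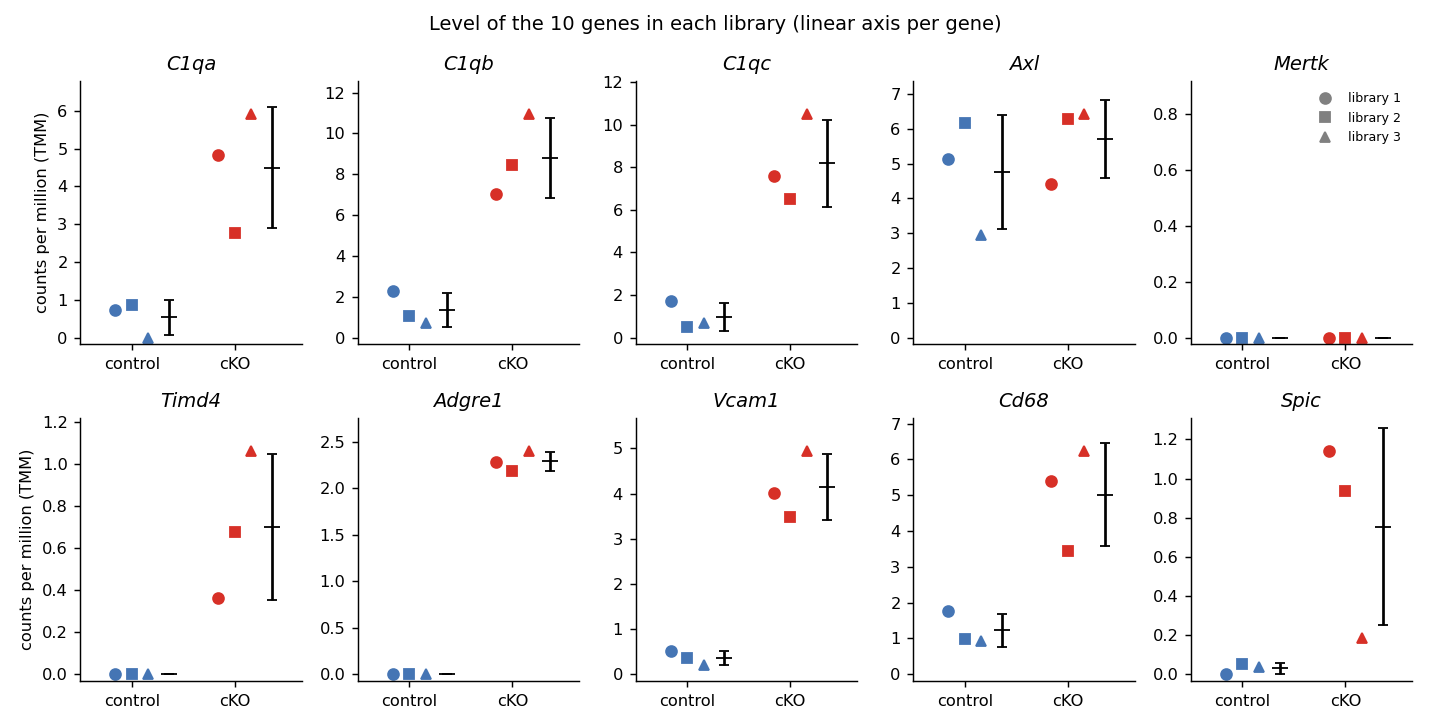
Each panel gives 1 gene, with CPM on a linear axis of its own, the 3 control libraries in blue and the 3 cKO libraries in red. Marker shapes give the library number, and black bars give the mean and SD. Mertk stays at 0, the groups overlap only for Axl, and cKO 3 is the top library in all other panels with a count except that of Spic.

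Zeros across the control group were counted over the whole table as a description, since Adgre1 was chosen for its high cKO counts and reached the median below only through them. Of 10737 genes with a median of at least 20 counts over the 6 libraries, 76 had a 0 in any library. Adgre1 was the only one of the 10737 with a 0 in all 3 control libraries. It was also the only gene of the table at 0 in all control libraries with at least 40 counts in each cKO library. With a minimum of 8 counts, the lowest count of Timd4 in cKO, 17 genes had this pattern and 3 genes had the opposite one. The 17 included Timd4 and Adgre1 themselves, and, chosen here after their values were seen, Cd5l, Fcgr4 and Fcna, which encode a scavenger protein of tissue macrophages, an Fc receptor and a ficolin. They also held genes of other kinds, among them Zfp711, Slc7a3 and Prss16, the last a protease of cortical thymic epithelium. The 17 are therefore not a set of macrophage genes. The submitters' processing notes name RSEM, which estimates counts, so a listed 0 may be a failed estimate.

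In the fit over all genes 5 of the 7 genes past the filter had an edgeR adjusted p below 0.05 with a higher level in cKO, and 0 with a lower one, beside 4.47% and 5.89% of all 11488 tested genes. Every cKO library lay above every control library for 8 of the 9 genes with a count and for 6 of the 7 past the filter, beside 15.7% of all tested genes. The median log2 fold change was 3.09 over the 7 genes and -0.0017 over all tested genes. The genes were chosen for this contrast, and C1qa, Adgre1 and Vcam1 passed the filter only with their cKO counts. These counts therefore restate the choice and nothing is read from them. Without cKO 3 the count of 5 became 1, over 8 genes past the filter. In that fit the log2 fold changes were 2.52 for C1qb, 2.87 for C1qc, 3.39 for Vcam1 and 1.85 for Cd68, on 5 libraries.

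**Figure D3:**
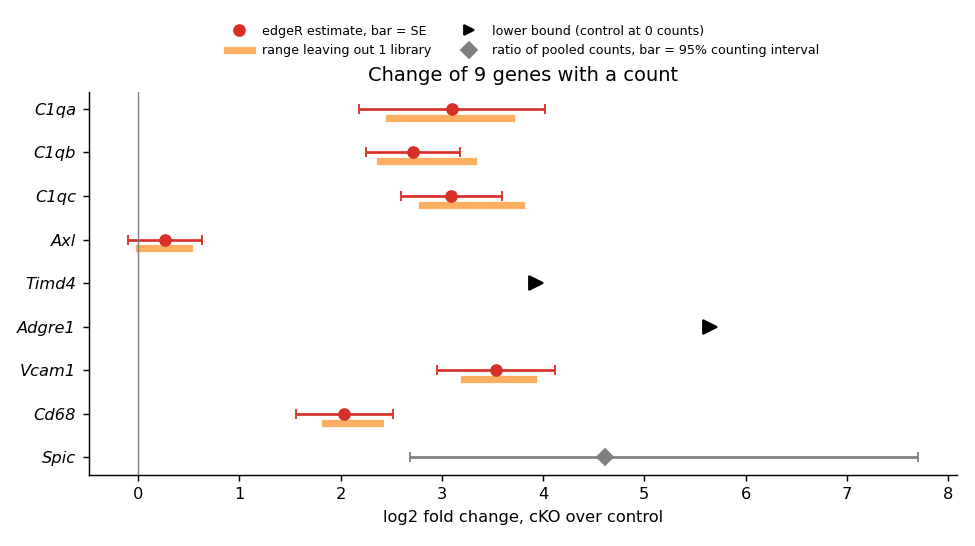
Red points give edgeR's log2 fold change, cKO over control, with the standard error, and orange bars give the range when 1 library is left out. Black triangles are lower bounds for Timd4 and Adgre1, which were at 0 in control, and the grey diamond is the ratio of pooled counts for Spic with its 95% counting interval. Axl lies at 0.27, and the other genes lie between 2.04 and the bound of 5.64 for Adgre1.

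Levels of different genes were compared by FPKM. In cKO the mean FPKM was 8.13 ± 1.78 for C1qb, 6.84 ± 1.67 for C1qc, 4.35 ± 1.52 for C1qa and 4.13 ± 1.16 for Cd68 (SD, n = 3). Axl followed at 1.36 ± 0.254 FPKM, Vcam1 at 1.22 ± 0.200, Adgre1 at 0.743 ± 0.0666, Spic at 0.587 ± 0.431 and Timd4 at 0.327 ± 0.1601. The mean ± SD ranges of neighbours in this order overlapped, except for Cd68 above Axl and Vcam1 above Adgre1. C1qb ranked 6883 among the 22322 genes by its mean FPKM in cKO, and Adgre1 ranked 10302. In control C1qb and Axl shared the top place at 1.24 FPKM each, ahead of Cd68 at 1.03, C1qc at 0.800 and C1qa at 0.513. Axl was therefore level with C1qb in control and below all 3 C1q chains in cKO.

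All 10 genes together took 0.000537 to 0.00123% of the counts of a control library and 0.00352 to 0.00485% of those of a cKO library. Their summed level was 12.1, 10.02 and 5.47 CPM in control 1 to 3 and 37.0, 34.7 and 48.5 CPM in cKO 1 to 3. Without Axl, which made up a large part of the control sum, the values were 7.0, 3.85 and 2.52 CPM against 32.6, 28.4 and 42.1 CPM. The order of the libraries was shared between genes only in part. Within the cKO group cKO 3 was highest for 8 of 9 genes, while cKO 2 was lowest for 5 and cKO 1 for 3. Within the control group control 3 was lowest for 5, and 2 of the 9 genes had no control count.

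The genes whose level over the 6 libraries most resembled that of the C1q chains were sought among 10767 genes with a mean of at least 1 CPM. Pearson's r was taken between log2 CPM and the mean log2 CPM of the 3 chains. It is a description over 6 libraries that share 2 genotypes. The closest gene outside the 10 was Slf1, a DNA repair factor, with r = 0.997, followed by Zfp947, by Slc40a1, which encodes the iron exporter ferroportin, and by Dffb, Sowahc, Lamtor3, Cul2, Brd8, Zfp959 and Slx1b, the last with r = 0.991. Among the genes described here r was 0.985 for Vcam1, 0.972 for Cd68, 0.931 for Adgre1 and 0.602 for Axl. With each group's mean removed r was 0.997 for Vcam1, 0.785 for Cd68, 0.695 for Axl and 0.335 for Adgre1. Vcam1 thus followed the mean of the chains within groups, and of these genes Adgre1, at 0 in every control library, did so least. Such a high value was not particular to Vcam1, since Zfp947 reached 0.994 and Slf1 0.992 in the same way. C1qc, itself part of that mean, reached 0.714. An r of at least 0.95 was reached by 144 other genes, beside a median r of -0.0038 over all genes compared.

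The fit was next read for 28 other macrophage identity genes, of which 27 had a count and 20 were tested. Of these, 3 rose in cKO and 0 fell, beside 4.47% of all tested genes called higher. The log2 fold change was above 0 for 18 of the 20, with a median of 1.62. Every cKO library lay above every control library for 10 of them, beside 15.7% of all tested genes. The 3 that rose were Cd5l, Fcgr3 and Cebpb, and Cd5l is named after its values were seen. Cd5l, Fcgr3 and several others of the 20 passed the filter only with their cKO counts, as Adgre1 did. The counts of genes that rose, were above 0 or were apart, and the median, therefore lean toward cKO. Cd5l, a scavenger protein secreted by tissue macrophages, was listed at 0 in control and had 28, 43 and 31 counts in cKO (edgeR adjusted p = 0.00938). Fcgr3, a low-affinity Fc receptor of myeloid and NK cells, had 1, 4 and 0 counts against 74, 40 and 32, a log2 fold change of 4.74 (SE 1.01, edgeR adjusted p = 0.0181). Cebpb, a transcription factor of myeloid and many other cells, had 759, 582 and 1286 counts against 1655, 1182 and 1699, a log2 fold change of 0.85 (SE 0.19, edgeR adjusted p = 0.0228). Without cKO 3 the adjusted p values were 0.0547, 0.0661 and 0.110 in that order, and without cKO 1 those of Fcgr3 and Cebpb were 0.0768 and 0.0801. Without control 2, that of Cebpb was 0.0741.

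Genes that define macrophages more generally were not all higher. Csf1r, the receptor for the macrophage growth factor CSF-1, had 33, 24 and 51 counts in control and 33, 31 and 57 in cKO, with a log2 fold change of 0.22 (SE 0.54, edgeR adjusted p = 0.837). Lyz2, the lysozyme of macrophages and granulocytes, had 300, 139 and 65 counts against 599, 361 and 538, a log2 fold change of 1.502 (SE 0.49) with an adjusted p of 0.0778 in edgeR, 0.00763 in DESeq2 and 0.0252 in limma-voom, and of 0.00639 in edgeR without control 1. The groups of Lyz2 did not overlap, and those of Csf1r did. Spi1, which encodes PU.1, had 3, 10 and 7 counts against 47, 22 and 22, a log2 fold change of 2.18 (SE 0.76, adjusted p = 0.0934). Tyrobp, a signalling adaptor of myeloid and NK cells, had 8, 11 and 8 counts against 42, 27 and 60, a log2 fold change of 2.23 (SE 0.66, adjusted p = 0.0570 in edgeR and 0.0221 in DESeq2). Cx3cr1, the fractalkine receptor, had 10, 0 and 1 counts against 15, 17 and 7, a log2 fold change of 1.77 (SE 1.18, adjusted p = 0.364). Spi1 and Tyrobp were apart between the groups without passing edgeR's test, and Cx3cr1 overlapped. Spi1, Tyrobp and Cx3cr1 passed the filter only with their cKO counts. Fcgr1, the high-affinity Fc receptor, was at 0 in control and had 13, 10 and 0 counts in cKO. Cd14, the lipopolysaccharide co-receptor, had 0, 4 and 5 counts against 5, 0 and 5, and Marco, a scavenger receptor, was at 0 in all 6 libraries. Apoe, an apolipoprotein of macrophages and other cells, had 921, 679 and 680 counts against 1576, 887 and 1443, with a log2 fold change of 0.76 (SE 0.23, adjusted p = 0.0625 in edgeR, 0.0113 in DESeq2 and 0.0463 in limma-voom).

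**Figure D4:**
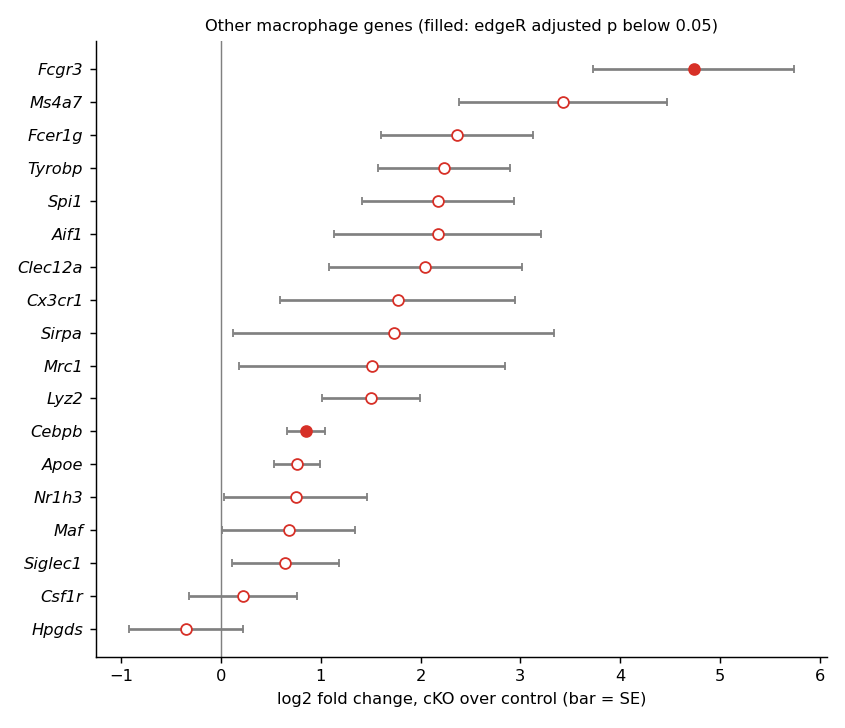
Points give the log2 fold change, cKO over control, of 18 of the 20 tested genes on the list of other macrophage identity genes, with the standard error, and filled points have an edgeR adjusted p below 0.05. Cd5l is left out because all control libraries were at 0, and 1 other gene is not reported here. Fcgr3 and Cebpb are filled, Csf1r lies at 0.22, and Hpgds lies below 0.

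Complement was read beyond C1q from 25 further components, receptors and regulators, of which 19 had a count and 7 were tested. Of these, 3 rose and 0 fell, beside 4.47% and 5.89% of all tested genes. Cfb, the alternative pathway protease factor B, had 3, 0 and 1 counts in control and 48, 30 and 24 in cKO (log2 fold change 4.56, SE 0.99, edgeR adjusted p = 0.0200), and is named after its values were seen. Cfp, which encodes properdin, the stabiliser of the alternative pathway convertase, had 23, 27 and 13 counts against 133, 73 and 91 (2.196, SE 0.52, adjusted p = 0.0282). C1qbp, a mitochondrial protein that was named for binding C1q, rose by 0.47 on the log2 scale (SE 0.12, adjusted p = 0.0400). Cfb passed the filter only through its cKO counts, so the count of 3 leans toward cKO. Leaving out cKO 1, cKO 3, control 2 or control 3 took each of the 3 past 0.05, to at most 0.0845 for Cfb, 0.106 for Cfp and 0.164 for C1qbp. Without cKO 2 the adjusted p was also 0.0514 for Cfb and 0.0642 for C1qbp. C1ra and C1s1, the proteases that join C1q in the C1 complex, were listed at 0 in all 6 libraries, as were C6, C7, Serping1 and the macrophage complement receptor gene Vsig4. Itgam, a subunit of complement receptor CR3, had 206, 202 and 129 counts in control and 55, 119 and 61 in cKO, a log2 fold change of -1.18 (SE 0.44, adjusted p = 0.109). The estimate was opposite in sign to those of the C1q chains, and the groups overlapped in CPM.

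Other receptors and bridging proteins of efferocytosis showed no call in edgeR. Of 23 genes, 18 had a count, 8 were tested and 0 were called in either direction, with 2 at an unadjusted p below 0.05, while DESeq2 called 1 higher and 1 lower and limma-voom called 0. The median log2 fold change of the 8 was 0.64. Gas6, the bridging ligand of Axl and Mertk, was listed at 0 in all 6 libraries. Its relative Pros1 had 12, 0 and 19 counts in control and 10, 28 and 1 in cKO. Tyro3, the remaining receptor of the Axl and Mertk family, had 18, 10 and 29 counts against 13, 31 and 86, a log2 fold change of 1.25 (SE 0.76, edgeR adjusted p = 0.318). The groups overlapped for both. Mfge8, a bridging protein from phosphatidylserine to integrins, had 927, 1272 and 1796 counts against 959, 545 and 924, a log2 fold change of -0.67 (SE 0.20, adjusted p = 0.0595 in edgeR and 0.0168 in DESeq2). Scarb1, a scavenger and lipoprotein receptor, had a log2 fold change of 0.79 (SE 0.30, adjusted p = 0.114).

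Genes that act after recognition of the dying cell are in part expressed by thymocytes as well. In sum they had far higher levels than the 10 genes, though some of them were as low as these. The 18 engulfment and phagosome genes summed to between 4203 and 4256 CPM in control and between 3708 and 3938 CPM in cKO. Of the 15 tested, 0 rose and 2 fell, with a median log2 fold change of -0.04. Vav1, a signalling protein prominent in T cells, fell by 0.41 on the log2 scale (SE 0.10, edgeR adjusted p = 0.0342), and Becn1, an autophagy gene, fell by 0.37 (SE 0.10, adjusted p = 0.0459). Of 14 tested genes for digestion and sterol handling after uptake, 0 rose and 5 fell in edgeR, beside 5.89% of all genes called lower. The median was -0.20, and 5 of the 14 had a log2 fold change above 0. DESeq2 called 1 higher and 5 lower, and limma-voom called 1 higher and 4 lower. The gene called higher by these tools was Apoe, given above. Slc37a2, a sugar-phosphate transporter, fell by 1.30 (SE 0.23, adjusted p = 0.00926) and Lipa, the lysosomal acid lipase, fell by 0.72 (SE 0.15, adjusted p = 0.0174). Ucp2, Abca1 and Npc2 also fell, by 0.65, 0.67 and 0.42 on the log2 scale (edgeR adjusted p = 0.0308, 0.0486 and 0.0401). The genes that fell thus went opposite to Cd68 and the C1q chains. Of the 7 genes that fell, only Slc37a2 was still called in 5 of the 6 fits that left out 1 library. Its edgeR adjusted p was 0.0517 without cKO 3. Lipa was called in 3 of these fits, not without cKO 1, cKO 3 or control 2. The other 5 were called in 1 fit each, without control 3 for Abca1 and without control 1 for the rest.

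Signals of the dying cell gave 2 genes that rose and 1 that fell among 10 tested, beside 4.47% and 5.89% of all tested genes, with a median log2 fold change of 0.03. Tmem30a, a subunit of the flippases that keep phosphatidylserine inside the membrane, rose by 0.61 (SE 0.15, edgeR adjusted p = 0.0305), and Calr, a chaperone that can serve as an eat-me signal, rose by 0.49 (SE 0.13, adjusted p = 0.0466). Anxa5, a phosphatidylserine-binding protein, fell by 0.43 (SE 0.11, adjusted p = 0.0321). Each was called in at most 2 of the 6 fits that left out 1 library. The do-not-eat-me gene Cd47 had the highest level of the list, with a log2 fold change of -0.18 (SE 0.12, adjusted p = 0.388).

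Around Spi-C, 12 genes of heme and iron recycling were read, of which 11 were tested, 1 rose and 0 fell, beside 4.47% and 5.89% of all tested genes, with a median log2 fold change of -0.09. The gene that rose was Slc40a1, with 14, 4 and 0 counts in control and 76, 78 and 149 in cKO. Its log2 fold change was 3.98 (SE 0.93, edgeR adjusted p = 0.0265). Slc40a1 passed the filter only with its cKO counts, so the count of 1 leans toward cKO. Its level followed that of the C1q chains as given above, and its adjusted p was 0.0646 without cKO 1, 0.0527 without cKO 2, 0.129 without cKO 3 and 0.0883 without control 2. Hmox1, the heme oxygenase of the same macrophages, had 117, 129 and 265 counts against 111, 114 and 176, with overlapping groups and a log2 fold change of -0.27 (SE 0.32, adjusted p = 0.637). Bach2, a repressor known from lymphocytes, had 92, 100 and 73 counts against 38, 35 and 14, a log2 fold change of -1.597 (SE 0.53, adjusted p = 0.0823 in edgeR and 0.0329 in DESeq2). Ferritin light chain gene Ftl1 had the highest level, with a log2 fold change of -0.25 (SE 0.10, adjusted p = 0.136). The integrin genes whose products bind VCAM-1, Itga4, Itgb1 and Itgb7, had log2 fold changes of -0.03, -0.10 and -0.57 (SE 0.13, 0.11 and 0.19), and 0 of the 3 were called by edgeR, DESeq2 or limma-voom, with 1 at an unadjusted p below 0.05.

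Markers of other cells were compared because the libraries came from a sort on CD4 and CD8. The summed level of the 28 macrophage genes was 134, 93.6 and 96.1 CPM in control and 212, 162 and 210 CPM in cKO, without overlap. Cebpb and Apoe, which other cells also express, made up 65.2 to 79.4% of it in a library. The other 26 genes summed to 46.5, 28.8 and 19.8 CPM in control and 64.2, 54.2 and 65.1 CPM in cKO, also without overlap. Dendritic cell markers summed to 1.75 to 3.96 CPM in control and 4.06 to 6.25 CPM in cKO, apart by a narrow margin, with Clec9a and Clec10a at 0 in all libraries and 0 of 2 tested genes called or below an unadjusted p of 0.05. Neutrophil markers summed to at most 0.312 CPM, with Elane, Mpo and Ly6g at 0 and none passing the filter. B cell markers summed to 41.9 to 46.0 CPM in control and 27.0 to 32.3 CPM in cKO, most of it Cd79b, which fell by 0.70 on the log2 scale (SE 0.15, edgeR adjusted p = 0.0194, and 0.0781 without cKO 3, 0.0775 without control 2 and 0.0754 without cKO 1). Of the 2 tested B cell markers, 1 had a log2 fold change above 0, so the lower sum reflects Cd79b and not the list as a set. Pax5 was at 0 in 5 of the 6 libraries. Erythroid markers summed to 27.5, 141 and 58.8 CPM in control and 1.92, 34.7 and 48.8 CPM in cKO, an order of libraries that is not that of the C1q chains, with 0 of 5 tested genes called or below an unadjusted p of 0.05.

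Thymic epithelial markers summed to 16.6 to 19.96 CPM in control and 17.1 to 24.1 CPM in cKO. Of the 3 tested, 0 were called by edgeR, DESeq2 or limma-voom and 1 had an unadjusted p below 0.05. Krt5 was at 0, and Prss16, a protease of cortical thymic epithelium named after its values were seen, was at 0 in control with 9, 15 and 10 counts in cKO. Mesenchymal and endothelial markers summed to 141 to 184 CPM and 160 to 185 CPM, most of it Pecam1, with Col3a1, Dcn and Kdr at 0. Of the 2 tested, 0 were called by any of the 3 tools or had an unadjusted p below 0.05. The 10 DP thymocyte markers summed to 11430, 12940 and 11050 CPM in control and 8278, 9779 and 8364 CPM in cKO. Of these, 3 fell and 0 rose in edgeR, beside 5.89% and 4.47% of all tested genes. DESeq2 called 5 lower and limma-voom called 4 lower. Cd1d1, the CD1d molecule of DP cells, fell by 0.97 on the log2 scale (SE 0.13, edgeR adjusted p = 0.00408). The recombinase gene Rag1 fell by 0.85 (SE 0.15, adjusted p = 0.00923, and 0.0656 without cKO 3), and Cd8b1, a chain of CD8, fell by 0.58 (SE 0.15, adjusted p = 0.0383, called only without control 1 among the 6 fits that left out 1 library). DP markers thus stood lower in all 3 cKO libraries in sum while the 10 genes stood higher in sum. Their part in the levels of the 10 genes was not tested.

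**Figure D5:**
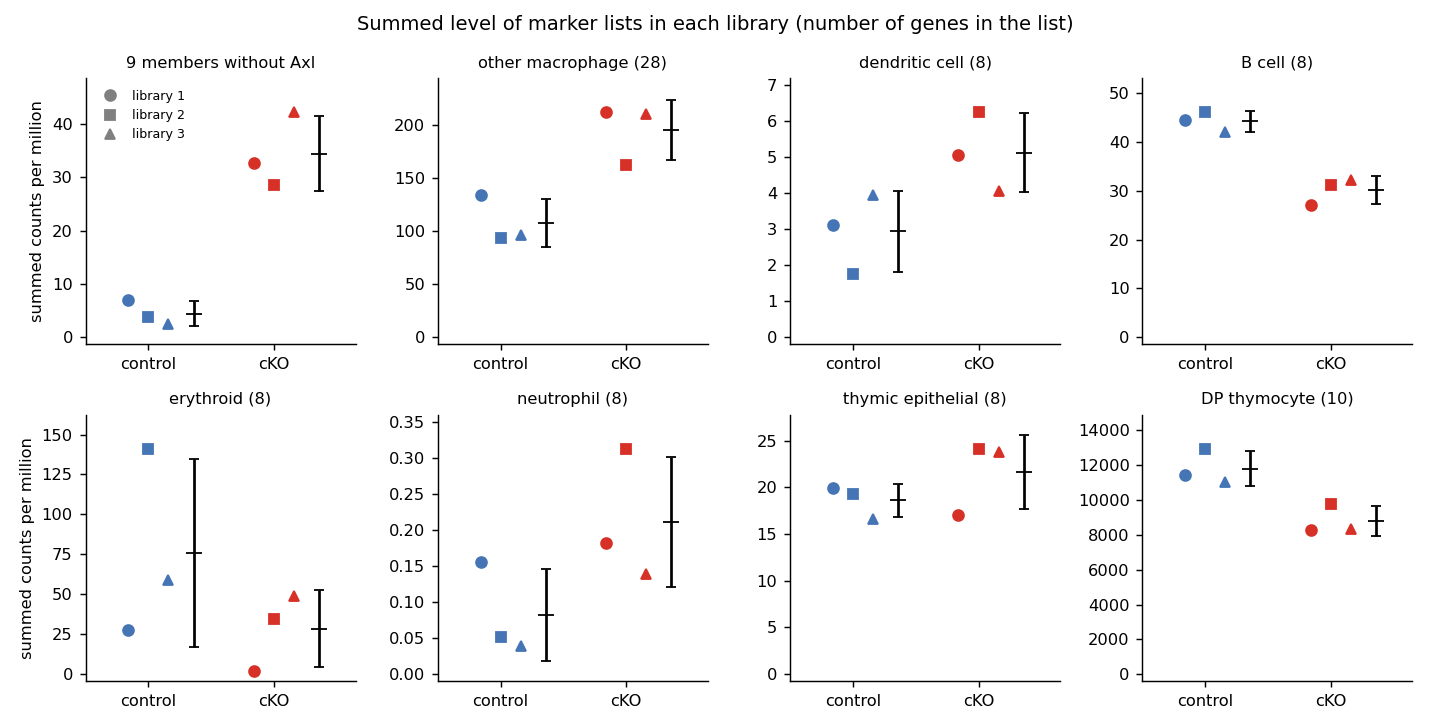
Each panel gives the summed CPM of a list in each library on a linear axis of its own, control in blue and cKO in red, with the mean and SD as black bars. The 10 genes without Axl, the other macrophage genes, the dendritic cell markers, the B cell markers and the DP markers are apart between the groups, and the erythroid markers are spread from 1.92 to 141 CPM. The B cell sum is mostly Cd79b.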

How the data were processed

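RNA-seq was made from 3 control and 3 cKO libraries of sorted DP thymocytes. The study's methods name cDNA pre-amplification with the Discover-sc WTA Kit V2, while the labels name a SMARTER kit. The authors deposited 1 table with, for each gene and library, the count and the FPKM, which scales counts to gene length and library size. The submitters' processing notes name fastp 0.18.0, Bowtie2 2.2.8, HISAT2, StringTie 1.3.1 and RSEM, with no role. The sources used here do not give the genome build, and gene positions are from GENCODE M21 on GRCm38, matched by Ensembl identifier. The log2, p-value and FDR columns that the authors deposited hold their own comparison and were not used, nor were their group means of FPKM.

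From the deposited counts, genes with too few reads were removed by filterByExpr. A gene needed 15 counts in total. It also needed the CPM of 10 counts at the median depth in at least 3 libraries, the size of a group. The genotypes were compared by the quasi-likelihood test of edgeR 4.0.16 (R 4.3.3) after TMM normalisation. No covariate was used. P-values were adjusted over 11488 genes by the Benjamini-Hochberg method, and a gene was called below 0.05. CPM used TMM factors, and correlations used log2 CPM with a prior count of 2. Alternatives used DESeq2 1.42.0 and limma-voom (limma 3.58.1). Scripts were tested on simulated counts. Libraries of a group differed by more than sampling noise, so none was counted as a duplicate.

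The 10 genes and all gene lists were chosen with earlier results of these data known. Genes were named by a rule: the 10 genes, Paxbp1, the defining markers Csf1r, Lyz2, Fcgr1, Spi1, Cd14, Itgam, Cx3cr1 and Tyrobp, from each list up to 4 genes averaging 1 CPM or more with the smallest adjusted p plus the gene with the highest mean, and the 10 genes most like the C1q chains. Genes at 0 in all libraries of a list and others outside the rule were named after their values were seen. Same-numbered libraries did not deviate together, so they were not treated as pairs. Some genes within the lists are not reported here, but stay in the counts, medians and sums of their lists.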

Additional observations from a re-analysis of the deposited data

How the results depend on the processing

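All 7 tested genes kept a log2 fold change above 0 in every alternative that tested them. The number called higher was 5 with relative log expression factors, with total counts alone and with the study's fold threshold, 6 with DESeq2 and limma-voom, where C1qa was added, and 7 of 9 tested without a filter, where C1qa and Timd4 were added. With a filter at a mean of 5 CPM only C1qb and Axl were tested, 1 gene was called and the median log2 fold change was 1.51. Leaving out 1 library gave 1 (without cKO 3) to 6 genes called (without control 1, with Timd4 among 9 tested) and a median of 2.86 to 3.78. Over all tested genes, 514 were called higher in the reported fit, 943 with DESeq2, and 42 (without cKO 3) to 1000 (without control 1) with 1 library left out. Cd68 was also not called without cKO 1, control 2 or control 3. Of the other macrophage genes 3 were called higher in the reported fit, 8 with DESeq2, 5 with limma-voom and 6 without a filter. The cause of these differences between tools was not tested.

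With the replicate number as a block, the number of the 7 genes called was 5, their median log2 fold change was 3.22, and 570 genes were called higher. The correlations of same-numbered libraries' deviations were 0.0451, 0.0377 and -0.03, so the numbers do not pair the libraries. With FPKM in place of CPM the mean share of C1qc in cKO was 35.3% against 38.0%, as gene length enters. Of the 10 genes most like the C1q chains, 6 were shared with a prior count of 0.5, and 7 had a Spearman rho of 1, a value that 90 genes reached. Depth limits Spic and Timd4, at 47 and 44 counts over the cKO group, and C1qa in control. The ratio of the summed CPM of the other macrophage genes, cKO over control, was 1.81 and, without Cebpb and Apoe, an alternative chosen after seeing the data, 1.93.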
